A study of Mus musculus with 6 samples.

Results

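The 35 genes described here are interferon-stimulated genes and regulators of the interferon response, chosen by a fixed list of symbols out of 25690 gene symbols measured. They were followed in RNA-seq libraries of CD27 single-positive (CD27SP) NK cells, an immature NK cell stage, sorted from mouse bone marrow (BM) by the presence of NK1.1 and CD27 and the absence of CD11b and of T and B cell surface markers. The study compared Ncr1cre Myc fl/fl mice, in which the transcription factor Myc is deleted, with Ncr1cre Myc wt/wt mice, with 3 libraries per genotype numbered 1, 2 and 4. Both genotypes carry Cre expressed from the Ncr1 locus, which encodes the NK cell receptor NKp46, on a C57BL/6 background, and no mouse in the labels was treated or infected. Cre of this kind acts only once a cell has switched on Ncr1, so a sorted cell need not have lost Myc. The labels do not say whether libraries came from separate mice, so the p-values below measure the spread between these libraries.

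Library wt/wt 1 held 8087537 estimated counts of named genes, whereas the other 5 held from 54471426 to 64866918. Values of rare transcripts in that library are therefore the least precise of the set. Levels within a gene are given in CPM, counts relative to the library total after TMM scaling, and levels are compared between genes only in TPM, which is corrected for length. In the wt/wt libraries 1, 2 and 4 Myc stood at 201, 183 and 164 CPM, and in the fl/fl libraries at 61.5, 64.6 and 76.5 CPM. Its log2 fold change was −1.44 (SE 0.15, edgeR adjusted p = 0.00189, n = 3 per genotype), which matches the genotype labels. With replicate 1 left out the adjusted p was 0.0105, just outside the threshold used below.

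Interferons are secreted proteins that bind receptors on the cell surface. Type I interferons signal through JAK kinases to a complex with STAT2 and IRF9 that binds a DNA element named ISRE, whereas IFN-γ, made in quantity by NK cells, acts mainly through a GAS element. The induced genes sense viral RNA, degrade it, block viral translation and entry, attack vacuoles that hold microbes, and tune the signal itself. Many of them also have a resting level in lymphocytes without infection.

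To show these elements in the genes discussed below, 6 stretches of promoter are printed from RefSeq (build GRCm38.p6), each the 130 bases just before the annotated start site, 5′ to 3′ on the strand of the gene. Capitals mark the ISRE core, GAAA and GAAA with 2 bases of any kind between them, in either orientation, in Isg15 (chr4:156200819-156200948, minus strand), Ifit1 (chr19:34640759-34640888, plus strand) and Rsad2 (chr12:26456453-26456582, minus strand). Capitals mark the GAS letters, TTCNNNGAA, in Irf1 (chr11:53769884-53770013, plus strand), Isg20 (chr7:78913294-78913423, plus strand) and Serpina3g (chr12:104236017-104236146, plus strand).
Isg15: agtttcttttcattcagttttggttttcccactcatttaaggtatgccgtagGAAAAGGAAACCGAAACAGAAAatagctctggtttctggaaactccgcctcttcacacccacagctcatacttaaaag
Ifit1: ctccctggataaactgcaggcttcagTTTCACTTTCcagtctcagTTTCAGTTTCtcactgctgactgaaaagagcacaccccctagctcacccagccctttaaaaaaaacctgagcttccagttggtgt
Rsad2: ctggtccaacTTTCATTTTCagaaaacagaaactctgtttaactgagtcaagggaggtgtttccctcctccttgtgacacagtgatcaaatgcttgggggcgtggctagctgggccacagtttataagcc
Irf1: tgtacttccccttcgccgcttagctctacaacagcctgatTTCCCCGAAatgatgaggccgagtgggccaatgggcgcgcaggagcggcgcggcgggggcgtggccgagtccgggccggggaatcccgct
Isg20: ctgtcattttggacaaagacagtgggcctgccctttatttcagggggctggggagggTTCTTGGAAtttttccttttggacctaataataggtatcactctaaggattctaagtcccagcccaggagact
Serpina3g: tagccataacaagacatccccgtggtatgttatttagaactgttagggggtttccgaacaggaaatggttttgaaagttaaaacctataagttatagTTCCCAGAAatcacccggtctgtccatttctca

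The marked run in Isg15 holds 3 overlapping ISRE matches whose first bases lie 78, 72 and 66 bases before the start site, and Ifit1 holds 2 separate matches at 104 and 85 bases. Of the 35 genes, 26 had a promoter in the RefSeq table, which covers 250 bases before to 50 bases after each start. The ISRE core was present in 14 of the 26 (53.8%), against 3.99% of all 27025 symbols with a promoter, searched on both strands. The GAS letters were present in 8 of the 26 (30.8%), against 9.55% of all symbols. The palindrome CACGTG, the E-box that Myc with its partner Max is known to bind, was found in 1 of the 26 (3.85%), Trim25, against 8.09% of all symbols. A match of letters is a description of the window and no evidence of binding in these cells.

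No member passed the threshold for a difference between genotypes, set at an edgeR adjusted p below 0.01 with a log2 fold change of 0.5 or more in either direction. That is 0 of 35 higher in Ncr1cre Myc fl/fl cells (background 1.28% of 15474 tested genes) and 0 of 35 lower (background 0.872%), against 2.15% of all genes in either direction. At an unadjusted p below 0.05, edgeR gave 9 members higher (12.4% of all genes) and 0 lower (10.2%). DESeq2 placed 3 members past the same threshold, all higher (4.17% of all genes) and none lower (3.54%). They were the 3 genes named next. By limma-trend 0 members were higher (1.07% of all genes) and 0 lower (0.64%), and requiring all 3 methods to agree gave 0 members with the same background, 1.07% higher and 0.64% lower. At an adjusted p below 0.05 with no fold limit, edgeR gave 3 members higher, Serpina3g, Isg20 and Usp18 (4.45% of all genes), and 0 lower (3.38%).

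The fitted values lay mostly to the higher side. The members' log2 fold changes had a median of 0.31, against 0.01 over all tested genes, and ran from −0.36 for Trim25 to 2.69 for Oas2. The median was 0.16 without replicate 2 and 0.18 with offsets from effective lengths. They were above 0 for 27 of 35 members, against 51.5% of all genes. The groups did not overlap, with the fl/fl libraries higher, for 7 members (16.2% of all genes), and for 0 members with the fl/fl libraries lower (15.1%). Within same-numbered libraries the median difference of the members was 0.17 for number 1, 0.39 for number 2 and 0.03 for number 4, so that its size differed between libraries.

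The 95% intervals show what these libraries can and cannot separate. The interval held 0 for 26 members and lay above 0 for 9. For 25 members it lay within a 2-fold change either way. In bulk RNA a lower or higher level can come from a changed number of expressing cells or from changed RNA per cell, which cannot be told apart here.

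By role, the 9 members at an unadjusted p below 0.05 were Isg20 and Rsad2 among the antiviral effectors, Irf1 and Irf9 among the transcription factors, and Usp18, Dhx58, Oas2, Igtp and Serpina3g. None of the IFIT, MX or PARP and XAF1 genes was among them, and neither DESeq2 nor limma-trend called any gene of those families.

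**Figure D1:**
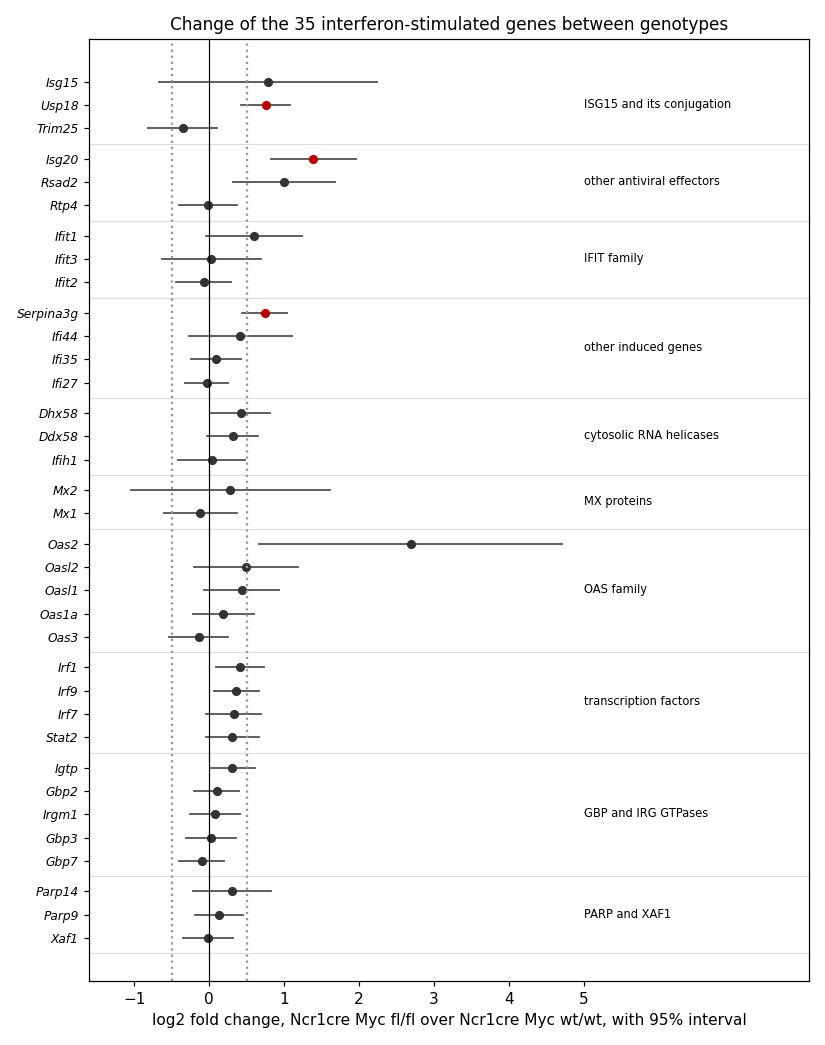
The log2 fold change between genotypes, fl/fl over wt/wt, (horizontal axis) is drawn for each of the 35 genes, grouped by role, with its 95% interval from edgeR and dotted lines at a log2 fold change of 0.5 in each direction. Red points mark the 3 genes with an adjusted p below 0.05, Serpina3g, Isg20 and Usp18, and 26 of 35 intervals cross 0.

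Markers of most other cell types, T cells excepted, were higher in the fl/fl libraries, and these values stand beside every result here. Calls of these genes are those of edgeR at the threshold above, unless DESeq2 is named. Summed over a list of basophil and mast cell genes, the level was 15.1 to 18.6 CPM in wt/wt and 122 to 335 CPM in fl/fl libraries, with 8 of 9 tested genes called higher. Mcpt8, a basophil protease, stood at 0.520, 1.79 and 1.31 CPM against 53.1, 67.0 and 23.8 CPM. Prss34, another basophil protease, stood at 1.56, 2.995 and 3.92 CPM against 149.6, 178 and 56.2 CPM. Both groups are far apart for both genes.

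Summed neutrophil genes ran from 83.0 to 137 CPM against 519 to 869.8 CPM, with 4 of 11 called higher (8 by DESeq2). The 4 were Elane, Mpo, Prtn3 and Retnlg, whereas S100a8 and S100a9 made up only a small part of the sum. S100a8 ran from 1.69 to 6.81 CPM against 6.59 to 11.05 CPM (log2 fold change 1.66, interval 0.86 to 2.46) and S100a9 from 1.37 to 4.78 against 4.31 to 8.51 CPM (1.48, interval 0.55 to 2.42), neither of them called by edgeR. Plasmacytoid dendritic cell genes summed to 376 to 428 CPM against 764 to 929.6 CPM, with 2 of 9 called higher by edgeR and 3 by DESeq2. The 2 called by edgeR were Siglech, a surface lectin of that cell type, at 2.86 to 5.73 against 11.9 to 16.4 CPM, and Irf8, a transcription factor that NK cells also express. Bst2, a further marker of that list and itself interferon-induced, stood at 10.5 to 25.8 against 13.9 to 25.0 CPM. Siglech and Bst2 made up only a small part of the summed level. Over the 9 tested genes of that list the log2 fold change ran from −0.41 to 1.79, with 8 fitted higher and 1 lower.

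Monocyte and macrophage genes had 3 of 9 called higher, among them Ly6c2 and Csf1r, and 4 by DESeq2. Erythroid genes had 2 of 9 called higher and 6 by DESeq2, with Hba-a1 at 9.18 to 56.1 against 105 to 217 CPM. B cell genes had 0 of 5 called and T cell genes 0 of 7. The B cell sums were nonetheless apart, at 4.55 to 8.64 CPM in wt/wt and 11.5 to 16.3 CPM in fl/fl libraries. Cd79a, a chain of the B cell receptor, stood at 0.130, 0.443 and 0.611 against 0.868, 0.805 and 2.48 CPM (log2 fold change 1.64, interval 0.51 to 2.78). Of the T cell receptor complex, Cd3e ran from 38.1 to 110.2 CPM in wt/wt and from 69.0 to 107 CPM in fl/fl libraries. Cd3d, which was not called, was lower in each fl/fl library than in any wt/wt library, at 97.4, 95.5 and 178 against 71.1, 93.7 and 85.5 CPM (log2 fold change −0.51, interval −0.94 to −0.09). The T cell list summed to means of 322 CPM in wt/wt and 297 CPM in fl/fl libraries. The NK cell genes Ncr1 (723 to 1016 against 793 to 958 CPM) and Klrb1c, which encodes NK1.1 (1608 to 1713 against 1555 to 2230 CPM), were abundant in both genotypes, as the sort implies. The NK cell list summed to 14890 to 15490 CPM in wt/wt and 16970 to 17710 CPM in fl/fl libraries, without overlap. Of its 11 genes 8 were fitted higher and 3 lower, with 0 called by edgeR and 1 called lower by DESeq2. The part of the other cell types in the levels of the interferon-stimulated genes was not tested.

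**Figure D2:**
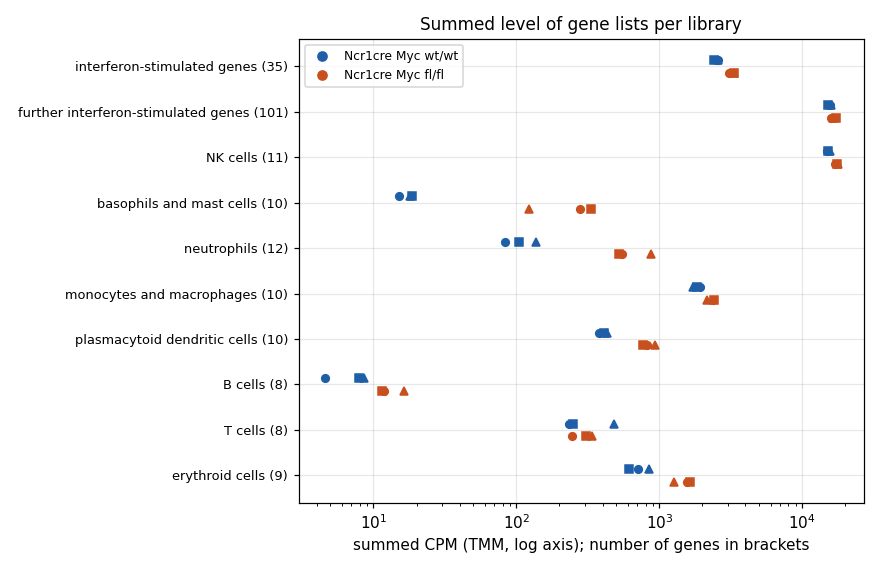
The summed CPM (horizontal log axis) of each gene list is drawn for every library, with the number of genes in brackets, wt/wt in blue and fl/fl in orange, and circles, squares and triangles for libraries 1, 2 and 4. The basophil and neutrophil lists differ most between genotypes, while the 35 interferon-stimulated genes run from 2396 to 2586 CPM in wt/wt and from 3055 to 3317 CPM in fl/fl libraries.

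Summed over all 35 members, the level was 2561, 2396 and 2586 CPM in wt/wt and 3055, 3299 and 3317 CPM in fl/fl libraries. The groups do not overlap. A large share of that sum is Serpina3g, and without it the sums were 1927, 1781 and 1941 against 2046, 2170 and 2287 CPM. They still do not overlap, but the distance is smaller.

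Serpina3g (chromosome 12, 104236245-104241939, GRCm38), an intracellular inhibitor of cathepsin proteases that interferon-γ is known to induce, was the most abundant member. It stood at 635, 615 and 644 CPM in wt/wt libraries and at 1009, 1129 and 1031 CPM in fl/fl libraries. The wt/wt libraries lie close together and every fl/fl library lies above them. The log2 fold change was 0.74 (SE 0.13), a ratio of 1.67, with an edgeR adjusted p of 0.0112, just outside the threshold. Over the alternative settings the log2 fold change ran from 0.68 to 0.79 and the adjusted p from 4.41e-06 to 0.0535. Serpina3g belongs to a cluster of similar genes between which reads can be shared. Its neighbour Serpina3f, looked up for that reason, stood at 59.8, 49.3 and 48.0 against 99.5, 118 and 134 CPM, with a log2 fold change of 1.17 (edgeR adjusted p = 0.00501), so the level of Serpina3g alone is uncertain.

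Isg20 (chromosome 7, 78913424-78920396), an exonuclease that degrades single-stranded RNA, stood at 2.34, 2.30 and 4.67 CPM in wt/wt and at 6.30, 6.27 and 11.6 CPM in fl/fl libraries. Library 4 was the highest of each genotype, and the lowest fl/fl library was above the highest wt/wt library. The log2 fold change was 1.39 (SE 0.25, edgeR adjusted p = 0.0118), with a range of 1.19 to 1.43 over the alternatives and adjusted p from 1.98e-05 to 0.11. These levels rest on 18, 130 and 306 counts in wt/wt and 370, 343 and 691 counts in fl/fl libraries.

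Rsad2, which encodes viperin, an enzyme that makes a chain-terminating nucleotide, stood at 3.51, 2.995 and 6.52 CPM against 6.26, 9.97 and 8.79 CPM. The groups overlap by library wt/wt 4. Its log2 fold change was 1.00 (SE 0.30, edgeR adjusted p = 0.0788), but 0.62 without replicate 2 and 1.49 with offsets from effective lengths. Rtp4, a regulator of the response with a zinc-finger domain, had 33.2 to 44.2 CPM in wt/wt and 35.2 to 43.9 CPM in fl/fl libraries, with a log2 fold change of −0.02 (interval −0.41 to 0.37).

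ISG15 is a ubiquitin-like protein attached to other proteins after interferon. Its gene Isg15 had 0.130, 3.95 and 6.43 CPM in wt/wt and 6.02, 3.16 and 7.40 CPM in fl/fl libraries. The first of these values is a single count in the shallow library wt/wt 1, against 223 and 421 counts in the other wt/wt libraries, although Isg20 at 2.34 CPM had 18 counts in that same library. The log2 fold change of 0.79 (interval −0.66 to 2.25, edgeR adjusted p = 0.538) rests on that library, and without replicate 1 it was −0.05.

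Usp18, which encodes the protease that removes ISG15 from proteins and also restrains the type I interferon receptor, stood at 33.9, 27.0 and 47.2 CPM against 58.5, 51.2 and 69.2 CPM. All 3 fl/fl libraries lie above all 3 wt/wt libraries. The log2 fold change was 0.75 (SE 0.15, edgeR adjusted p = 0.0155), with a range of 0.67 to 0.84 over the alternatives and adjusted p from 0.0002 to 0.129. Trim25, a ubiquitin ligase that activates RIG-I, had the lowest fold change of the members. It stood at 26.5, 33.1 and 31.0 against 27.9, 17.9 and 26.4 CPM, with a log2 fold change of −0.36 (interval −0.81 to 0.10) and overlapping groups.

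**Figure D3:**
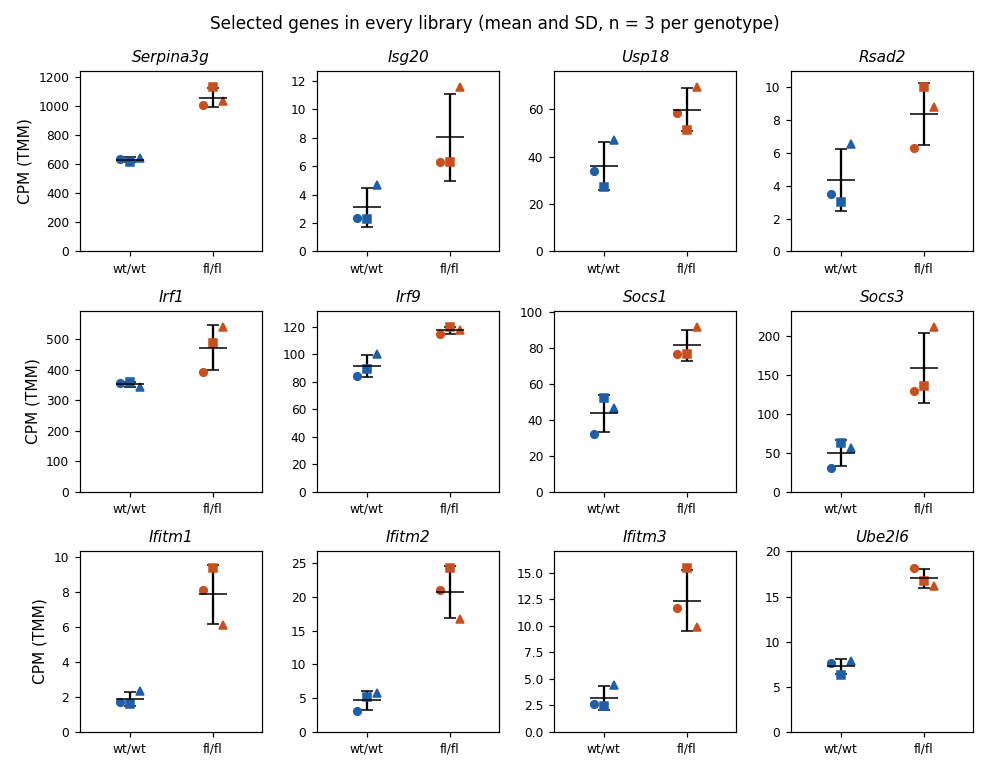
CPM (vertical axis, from 0) of 6 members and of 6 other interferon pathway genes is drawn for every library, wt/wt in blue and fl/fl in orange, with circles, squares and triangles for libraries 1, 2 and 4 and black bars for the mean and SD of 3 libraries. The groups do not overlap in any panel except that of Rsad2, where library wt/wt 4 at 6.52 CPM lies above library fl/fl 1 at 6.26 CPM.

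The transcription factors of the response had close values in the main fit. All 4 had fitted log2 fold changes between 0.31 and 0.41, with a median of 0.34, and none passed the threshold. Without replicate 4 they ran from 0.16 for Stat2 to 0.41 for Irf9, and without replicate 1 from 0.30 for Stat2 to 0.55 for Irf1. Irf1, the first factor induced by interferon-γ and itself a driver of GBP genes, stood at 357, 359 and 343 CPM in wt/wt and at 391, 489 and 539 CPM in fl/fl libraries. The groups do not overlap, and the fl/fl libraries are spread more widely. Its log2 fold change was 0.41 (SE 0.15, edgeR adjusted p = 0.125).

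Irf9, the DNA-binding subunit of the ISRE complex, stood at 84.6, 89.7 and 100.0 CPM against 115, 119.7 and 118 CPM (log2 fold change 0.36, edgeR adjusted p = 0.133), again with no overlap. Stat2, its partner, stood at 38.5, 39.6 and 32.9 against 48.2, 40.4 and 48.8 CPM, where the closest libraries of the groups are nearly level. Irf7, which amplifies type I interferon production, stood at 92.4, 69.9 and 80.0 against 84.8, 100.4 and 118 CPM, and its groups overlap (log2 fold change 0.33, interval −0.04 to 0.69).

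The cytosolic helicases sense viral RNA, and their median log2 fold change was 0.31 with 0 of 3 called. Ddx58, which encodes RIG-I, stood at 145, 106 and 102 CPM against 143, 138 and 153 CPM. Library wt/wt 1 lies among the fl/fl libraries, whereas the other wt/wt libraries lie below them. Dhx58, which encodes the regulator LGP2, ran from 14.03 to 22.9 CPM in wt/wt and from 21.8 to 26.6 CPM in fl/fl libraries (log2 fold change 0.42, interval 0.02 to 0.82, edgeR adjusted p = 0.2003). Ifih1, which encodes MDA5, ran from 9.45 to 14.2 against 9.51 to 13.6 CPM, with a log2 fold change of 0.03 (interval −0.41 to 0.48) that turned to −0.20 with offsets from effective lengths.

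IFIT proteins bind viral RNA with a foreign 5′ end. The 3 members of the family had a median log2 fold change of 0.03 and none was called. Ifit1 stood at 10.7, 6.63 and 17.3 CPM in wt/wt and at 13.8, 18.2 and 16.8 CPM in fl/fl libraries, so that the wt/wt libraries span the whole fl/fl range except its top. Ifit2 ran from 35.9 to 41.7 against 31.6 to 40.0 CPM (log2 fold change −0.07) and Ifit3 from 9.06 to 18.9 against 10.2 to 14.6 CPM (log2 fold change 0.03). Ifit3 has a close copy, Ifit3b, at 0.992 to 1.95 CPM in wt/wt and 1.37 to 1.79 CPM in fl/fl libraries, and reads of the pair may be split between them.

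OAS proteins make a second messenger that activates RNase L, and the OASL proteins are their relatives. Their median log2 fold change was 0.43 over 5 genes, with 0 called. Oas1a stood at 18.1, 19.0 and 35.4 CPM against 24.2, 23.7 and 31.7 CPM, with library wt/wt 4 the highest of all. Oas3 ran from 18.3 to 20.6 against 16.1 to 19.7 CPM and was lower in fl/fl in each of the 3 same-numbered comparisons (log2 fold change −0.14, interval −0.54 to 0.26). Oasl1 ran from 7.23 to 12.6 against 10.6 to 14.4 CPM and Oasl2 from 3.21 to 7.10 against 5.95 to 7.67 CPM. Copies of Oas1a lie beside it on chromosome 5, and Oas1g, among them, had 1, 7 and 44 counts in wt/wt and 20, 39 and 36 in fl/fl libraries.

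Oas2 had the largest fitted fold change and the fewest reads. It had 2, 0 and 4 counts in the wt/wt libraries and 38, 13 and 21 counts in the fl/fl libraries, which is 0.260, 0 and 0.0611 CPM against 0.647, 0.238 and 0.352 CPM. Library wt/wt 1 lies within the fl/fl range. The log2 fold change of 2.69 had an interval from 0.66 to 4.71 (edgeR adjusted p = 0.107), so its size is poorly fixed at this depth.

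MX proteins are GTPases that trap viral nucleocapsids. Most Mx1 counts, 69.0 to 84.7% per library, lay on a transcript annotated for nonsense-mediated decay, which breaks down faulty RNA. Transcripts of Mx2 include some annotated as a polymorphic pseudogene. The RNA levels of both genes therefore do not stand for working protein. Mx1 ran from 8.32 to 11.2 CPM in wt/wt and from 7.66 to 11.2 CPM in fl/fl libraries (log2 fold change −0.12, interval −0.60 to 0.37). Mx2 had 5, 11 and 90 counts against 38, 36 and 50 counts, or 0.650, 0.195 and 1.37 CPM against 0.647, 0.658 and 0.838 CPM. The wt/wt libraries enclose the fl/fl libraries, and the interval of the log2 fold change, −1.05 to 1.61, covers more than a 2-fold change in each direction.

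The guanylate-binding proteins (GBP) and immunity-related GTPases (IRG) coat vacuoles of intracellular microbes and respond to interferon-γ. Their median log2 fold change was 0.08, and 0 of 5 were called. Igtp, which encodes IRGM3, stood at 134, 115 and 129 CPM in wt/wt and at 151, 162 and 154 CPM in fl/fl libraries, with no overlap (log2 fold change 0.31, edgeR adjusted p = 0.212). The other 4 overlapped. Gbp7 ran from 248 to 260 against 212 to 253 CPM, Gbp2 from 61.2 to 76.9 against 68.8 to 75.9 CPM, Gbp3 from 53.5 to 68.9 against 58.8 to 66.7 CPM, and Irgm1 from 90.6 to 128 against 105 to 119 CPM. The intervals of these 4 genes reached no further than −0.41 and 0.41.

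Parp9 and Parp14, ADP-ribosyltransferase family members known to be induced by interferon, ran from 51.1 to 66.0 against 62.0 to 63.7 CPM and from 24.0 to 33.3 against 27.8 to 49.6 CPM. The high Parp14 value belongs to library fl/fl 1 alone, and its log2 fold change of 0.31 was −0.03 without replicate 1 and −0.14 with offsets from effective lengths. Xaf1, a promoter of apoptosis, ran from 36.4 to 44.5 against 38.7 to 39.5 CPM (log2 fold change −0.01). Of the remaining induced genes, Ifi27 stood at 90.2, 86.0 and 99.3 against 88.3, 85.9 and 95.1 CPM, with a log2 fold change of −0.03 (interval −0.32 to 0.26). Ifi35, which encodes a scaffold protein, ran from 68.1 to 97.9 against 86.7 to 95.9 CPM, and Ifi44 from 4.42 to 14.6 against 9.20 to 10.7 CPM. In both, library wt/wt 1 was the lowest of all and library wt/wt 4 the highest.

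The genes with an ISRE core in their promoter had a median log2 fold change of 0.14 over 14 members, from −0.14 to 1.00. The 12 matched members without it had a median of 0.39, from −0.36 to 1.39. Members with GAS letters had a median of 0.25 over 8 and those without 0.31 over 18. The 3 printed GAS promoters belong to genes with fold changes of 0.41, 1.39 and 0.74, and they were chosen for display with those values known.

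By length-corrected level, 6 members averaged above 100 TPM over the 6 libraries, 19 lay from 10 to 100 TPM and 10 lay below 10 TPM, of which 2 were below 1 TPM. Serpina3g led with a mean of 614 ± 53.3 TPM in wt/wt and 1115 ± 41.3 TPM in fl/fl libraries (SD, n = 3 each). Irf1 followed with 310 ± 18.1 and 443 ± 54.0 TPM, and Ifi27 with 201 ± 9.25 and 201 ± 12.6 TPM. These 3 do not overlap each other in any library. The next places by the mean of all libraries were Ifi35 (113 TPM), Gbp7 (104 TPM) and Igtp (102 TPM). Gbp7 and Igtp changed order with genotype. Gbp7 had 103 ± 4.14 TPM and Igtp 88.4 ± 2.91 TPM in wt/wt libraries, and in fl/fl libraries Gbp7 had 104.9 ± 6.07 TPM and Igtp 117 ± 2.72 TPM (SD, n = 3), without overlap in either genotype. Ifi35 varied more, at 106 ± 25.0 TPM in wt/wt libraries.

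At the low end the order was Ifi44 (4.25 TPM), Rsad2 (3.27 TPM), Mx2 (0.484 TPM) and Oas2 (0.106 TPM). Rsad2 had 1.77 ± 1.17 TPM in wt/wt and 4.76 ± 1.38 TPM in fl/fl libraries, so Ifi44 and Rsad2 change places between libraries. Mx2 and Oas2 are apart from both.

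**Figure D4:**
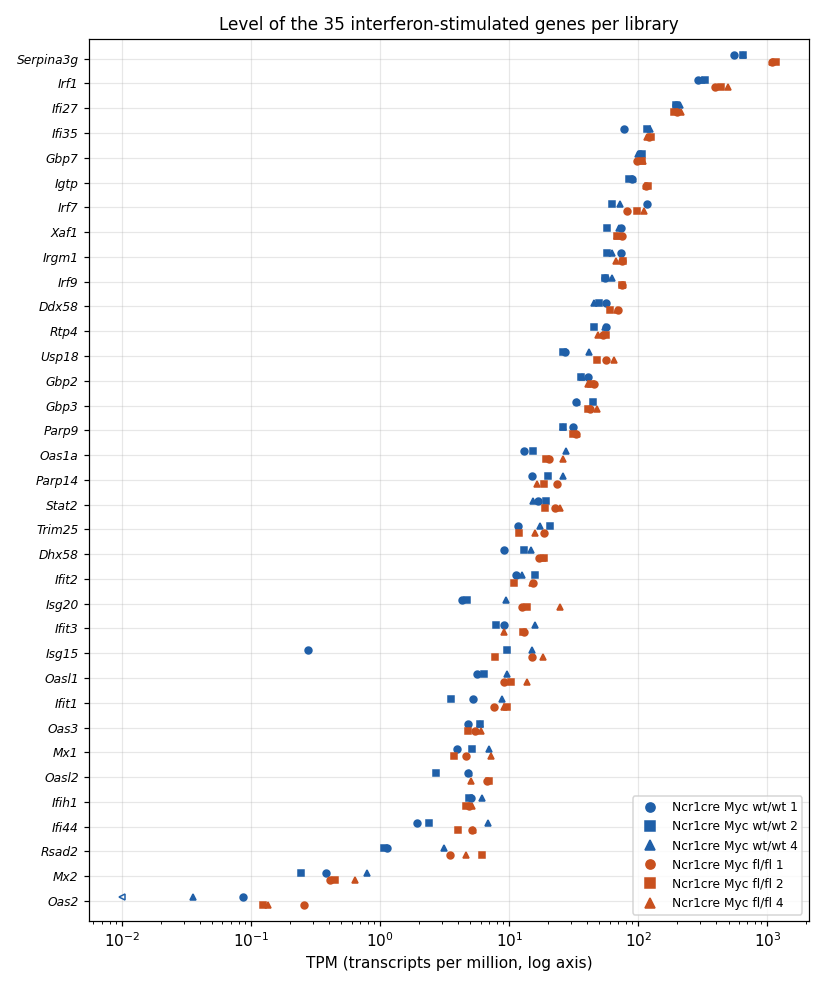
TPM of each of the 35 genes (horizontal log axis) is drawn for every library, wt/wt in blue and fl/fl in orange, with circles, squares and triangles for libraries 1, 2 and 4, ordered by the mean of all 6. The genes span from Oas2, with a mean of 0.106 TPM, to Serpina3g, with a mean of 864 TPM, and the open triangle at the left edge is the wt/wt library in which Oas2 was at 0.

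The wt/wt libraries differed among themselves in these genes. Between the well-sequenced libraries wt/wt 4 and wt/wt 2, 28 of 35 members were higher in wt/wt 4, against 49.9% of all genes, with a median log2 ratio of 0.20 against 0.00. By CPM with 0.5 added, 6 members were at least 2-fold higher in wt/wt 4, against 0.788% of all genes. They were Mx2 (log2 ratio 1.43), Ifit1 (1.32), Ifi44 (1.24), Oasl2 (1.03), Ifit3 (1.02) and Rsad2 (1.01). The other 7 members were not higher in wt/wt 4, namely Stat2 (−0.27), Gbp3 (−0.16), Ifit2 (−0.12), Trim25 (−0.09), Irf1 (−0.07), Ddx58 (−0.06) and Gbp7 (−0.02).

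The T cell markers also differed between these libraries, with a sum of 483 CPM in wt/wt 4 and 249.1 CPM in wt/wt 2, and their part in the spread was not tested. Among the fl/fl libraries, number 4 was higher than number 2 for 23 members (median log2 ratio 0.15) and higher than number 1 for 25 (median 0.10). The median SD of log2 level was 0.25 in wt/wt and 0.16 in fl/fl libraries for the members, and 0.21 and 0.17 for all genes. For 27 of 35 members the range over the wt/wt libraries exceeded the difference between the genotype means, against 69.0% of all genes.

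**Figure D5:**
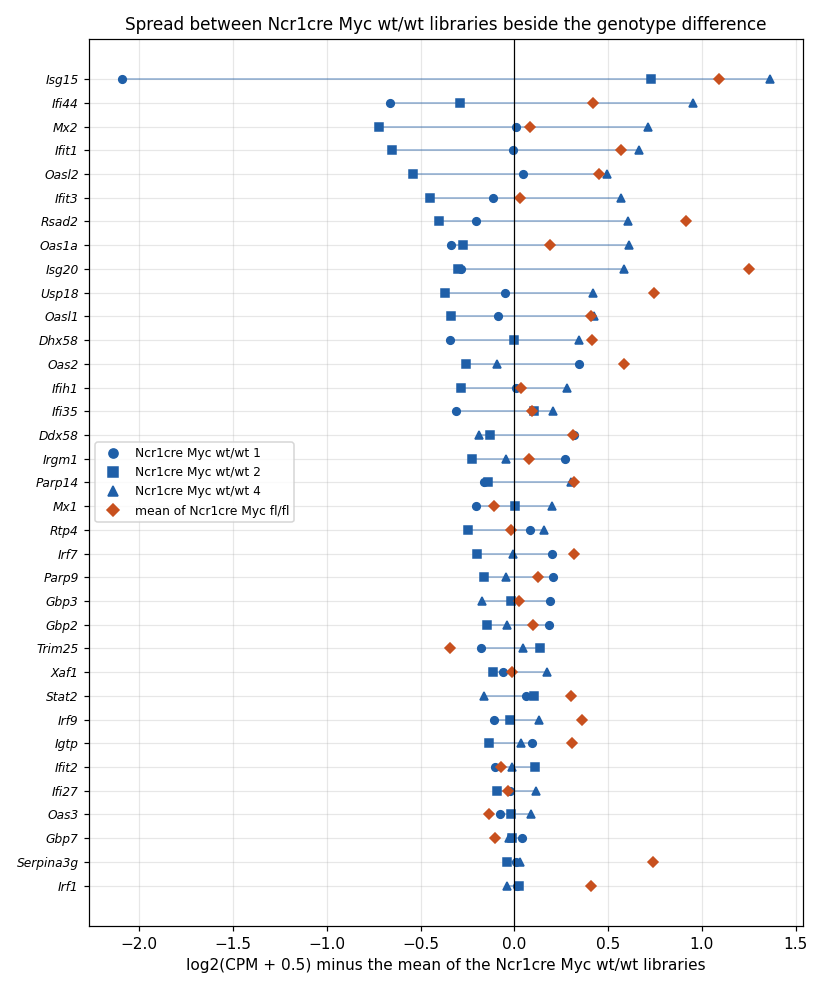
For each member, log2(CPM + 0.5) of the 3 Ncr1cre Myc wt/wt libraries (blue circle, square and triangle for libraries 1, 2 and 4) and the mean of the 3 Ncr1cre Myc fl/fl libraries (orange diamond) are drawn relative to the wt/wt mean, on a log2 horizontal axis, ordered by the wt/wt range. The range of the wt/wt libraries is larger than the difference of means for 27 of 35 members (69.0% of all genes), and Irf1 and Serpina3g have the narrowest wt/wt ranges.

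The other genes of the pathway were followed from fixed lists of 164 genes, of which 138 could be tested, and 7 of these were called higher and 0 lower by edgeR (1.28% and 0.872% of all genes). DESeq2 called 11 higher and 1 lower (4.17% and 3.54% of all genes). At an unadjusted p below 0.05 edgeR gave 0 ligands, 2 receptors, 3 inhibitors, 3 sensors and 18 further induced genes higher, with 8 of the 99 tested genes of the last list lower. The background at that limit was 12.4% of all genes higher and 10.2% lower, and the 8 lower genes lie near it. Among 21 interferon ligands only Ifng, which encodes interferon-γ, had enough counts to be tested. It stood at 148, 147 and 176 CPM in wt/wt and at 148, 179 and 299 CPM in fl/fl libraries, the last of which stands apart. Its log2 fold change was 0.36 (SE 0.16, edgeR adjusted p = 0.237).

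Of the receptors 0 of 5 were called. Ifngr1, the ligand-binding chain of the interferon-γ receptor, stood at 1165, 1144 and 1117 CPM against 1542, 1730 and 1320 CPM, with no overlap (log2 fold change 0.41, edgeR adjusted p = 0.106). Ifngr2, its signalling chain, was rare at 2.47, 2.20 and 2.58 CPM against 5.07, 4.04 and 4.15 CPM, also with no overlap (log2 fold change 0.86, edgeR adjusted p = 0.109). Jak2, a kinase bound to the interferon-γ receptor, was not called. It stood at 158, 131 and 134 against 194, 198 and 206 CPM, without overlap (log2 fold change 0.50, edgeR adjusted p = 0.0551).

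Inhibitors of the signal included 2 of 10 genes that were called higher by edgeR, and 3 by DESeq2. Socs3, which blocks JAK kinases mainly at receptors of the gp130 family, stood at 30.4, 62.5 and 56.0 CPM in wt/wt and rose to 129.7, 136 and 211 CPM in fl/fl libraries (log2 fold change 1.70, SE 0.19, edgeR adjusted p = 0.00223). Its call was lost in 3 of the 14 alternative settings, with adjusted p over all of them from 4.02e-13 to 0.0131. These settings include the main fit at a looser limit, where no call can be lost, and the largest adjusted p of the 3 methods. Cish, an inhibitor of cytokine signalling that interleukins acting through STAT5 induce, stood at 13.3, 25.4 and 30.3 CPM against 32.7, 50.9 and 57.0 CPM (log2 fold change 1.06, edgeR adjusted p = 0.00572). The call of Cish was lost in 7 of the 14, among them the fit without the replicate block (edgeR adjusted p = 0.0563). Socs1, the main brake on interferon receptors, was named after its values were seen. It stood at 32.2, 51.9 and 46.8 CPM against 76.4, 76.6 and 91.4 CPM, with an edgeR adjusted p of 0.0101 just outside the threshold (log2 fold change 0.92). Library wt/wt 1 had the lowest value of all 3 genes.

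Among the sensors and adaptors upstream of interferon production, 0 of 19 were called. Irf5 stood at 16.8, 22.9 and 19.5 CPM against 30.9, 29.2 and 30.0 CPM (edgeR adjusted p = 0.0677), and Tlr7, an endosomal receptor for RNA, at 0, 0.514 and 0.458 CPM against 1.24, 1.77 and 0.787 CPM (edgeR adjusted p = 0.134). Both are known to be expressed strongly in myeloid or plasmacytoid dendritic cells. Several markers of those cells were higher in fl/fl libraries, as given above, and their part in the Irf5 and Tlr7 values was not tested.

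Of the further interferon-stimulated genes, 99 of 102 listed were tested, with a median log2 fold change of 0.11. By edgeR 5 were called higher and 0 lower, and by DESeq2 8 higher and 1 lower. Ifitm1, Ifitm2 and Ifitm3, membrane proteins that block viral entry, rose together. Ifitm2 stood at 3.12, 5.19 and 5.79 CPM in wt/wt and at 20.98, 24.3 and 16.7 CPM in fl/fl libraries (log2 fold change 2.11, edgeR adjusted p = 0.00309). Ifitm1 stood at 1.69, 1.61 and 2.35 against 8.13, 9.42 and 6.10 CPM (log2 fold change 2.04, edgeR adjusted p = 0.00677). Ifitm3 stood at 2.60, 2.45 and 4.46 against 11.7, 15.5 and 9.85 CPM (log2 fold change 1.97, edgeR adjusted p = 0.00781). In all 3 genes library fl/fl 2 was the highest and fl/fl 4 the lowest of the fl/fl libraries, the same order as for Mcpt8 and Prss34, and whether the basophil RNA carries these genes was not tested. Reads of these similar genes may also be shared.

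Plac8, a small cysteine-rich protein of leukocytes, stood at 31.7, 26.1 and 46.4 CPM against 84.3, 73.8 and 105 CPM (log2 fold change 1.36, edgeR adjusted p = 0.00189). Ube2l6, the conjugating enzyme for ISG15, stood at 7.67, 6.31 and 7.80 CPM against 18.2, 16.7 and 16.1 CPM (log2 fold change 1.23, edgeR adjusted p = 0.00845). Both sets of libraries are far from overlapping. Over the same 14 alternative settings the call was lost in 4 for Ifitm1, in 4 for Ifitm2, in 5 for Ifitm3, in 1 for Plac8 and in 5 for Ube2l6. With replicate 1 left out, 1 of the 138 pathway genes was past the threshold in place of 7, with replicate 2 left out 3 were, and with replicate 4 left out 5 were.

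A pair of genes just outside the threshold differed in opposite directions and was named after the values were seen. Cxcl10, a chemokine that interferon-γ induces, stood at 7.93, 7.02 and 12.95 CPM against 14.5, 15.4 and 32.2 CPM (log2 fold change 1.12, edgeR adjusted p = 0.0105). Ifit1bl1, a relative of Ifit1, stood at 21.6, 16.8 and 26.4 CPM in wt/wt and at 8.37, 9.79 and 9.30 CPM in fl/fl libraries (log2 fold change −1.22, edgeR adjusted p = 0.0102). For both genes the groups do not overlap.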

How the data were processed

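Poly(A)-selected SMART-Seq v4 libraries of sorted BM CD27SP NK cells were sequenced single end. The 6 deposited tables hold, per mouse transcript, an estimated count (not normalized), a TPM and an effective length, made by the authors. The submitters' processing notes name Salmon and GRCh38, whereas the columns are those of kallisto and the identifiers are mouse, so the build used is not settled. Here estimated counts and the deposited TPM were summed by symbol through GENCODE M21 (GRCm38), with 100239 of 100583 transcripts matched, and counts were rounded.

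The test was edgeR's quasi-likelihood test (4.0.16, R 4.3.3) after filterByExpr (15474 genes) and TMM scaling, with replicate number blocked since the study describes paired comparisons, and Benjamini-Hochberg adjustment over all genes tested. DESeq2 (1.42.0) and limma-trend (3.58.1) were alternatives, beside other scalings, filters, the fit without the block, and leaving out each replicate number. The fits were tested on simulated counts. Deviations of same-numbered libraries from their group means correlated at −0.01, −0.02 and 0.06 over genes (limit 0.1), which does not show pairing. Counts of libraries within a genotype differed by more than sampling noise, so none is a second deposit of the same library, which says nothing on whether they are separate mice. Within-genotype ratios used CPM plus 0.5.

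The members and all gene lists were chosen with earlier results of these data known. All members were described, the 3 most and 3 least abundant and those past the threshold in every library, with genes of other lists named if past the threshold or, where none was, the 2 with the smallest adjusted p, and the first 2 markers of each marker list. Some further genes were named after their values were seen and are marked so. Intervals cover 95%. Promoter sequences are RefSeq's (GRCm38.p6). Some genes of these lists are not reported here.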

Additional observations from a re-analysis of the deposited data

How the results depend on the processing

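The count of members called higher, 0 by the edgeR fit with the block, was 1 without the replicate block (Serpina3g, edgeR adjusted p = 0.00492), 3 with DESeq2, 3 with no filter on low counts, 2 with at least 10 counts in every library (32 members tested), 3 at an adjusted p below 0.05 with no fold limit, and 1 with neither the block nor the shallow library wt/wt 1, a setting chosen after seeing the data. It was 0 with each replicate number left out, and the count called lower was 0 throughout. The median log2 fold change of the members, 0.31, ran from 0.16, without replicate 2, to 0.32.

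Of the 138 other pathway genes, 7 were called higher, against 11 with DESeq2, 11 at an adjusted p below 0.05 with no fold limit, 2 by library size only, 1 with offsets from effective lengths, and 3 with neither the block nor library wt/wt 1. Leaving out a replicate gave 1 to 5. The count lower, 0, was 1 (Ifit1bl1) without the replicate block, with DESeq2, with DESeq2 size factors, with no filter and at an adjusted p below 0.05 with no fold limit. The cause was not tested.

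Some members turned in sign, among them Isg15, Ifi44, Parp14 and Mx2, whose log2 fold changes were 0.79, 0.41, 0.31 and 0.28. Without the replicate block Ifit3 was −0.03 and Mx2 −0.09 on the log2 scale. With neither the block nor library wt/wt 1, Ifi35 was −0.08, Ifi44 −0.05, Ifit3 −0.12, Mx2 −0.16, Oas1a −0.05 and Rtp4 0.00. Offsets from effective lengths gave Ifih1 −0.20 and Parp14 −0.14, and the count minimum of 10 gave Rtp4 0.01 and Xaf1 0.01. Leaving out a replicate number gave ranges of Gbp3 −0.14 to 0.15, Ifi35 −0.05 to 0.21, Ifih1 −0.03 to 0.07, Ifit2 −0.18 to 0.10, Ifit3 −0.31 to 0.48, Irgm1 −0.07 to 0.21, Isg15 −0.05 to 1.63, Mx1 −0.20 to 0.01, Mx2 −0.42 to 0.95, Parp14 −0.03 to 0.58, Rtp4 −0.22 to 0.13 and Xaf1 −0.06 to 0.05. Low counts limit Oas2 and Mx2, with 2 and 5 in library wt/wt 1. Isg15 had 1 there, and the cause was not tested. With the block, leaving out a library leaves out its number in both genotypes.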
